A study of Mus musculus with 28 samples.

Results

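Chondrocyte-like cells were cells that carried the transcripts of cartilage in scRNA-seq of Ai9+ cells sorted from the bones of 8-week-old Prx1Cre and OsxCre mice. A cell was included when it had at least 200 detected genes and when 7 cartilage genes (Col2a1, Col9a1, Col9a2, Col11a2, Cnmd, Matn3 and Hapln1) together held at least 1% of its unique molecular identifiers (UMIs, which count captured transcripts). This rule chose 233 of 1775 cells at 8 weeks. Of these, 158 were among 993 Prx1Cre cells, a share of 15.9% (95% exact binomial interval of 13.7 to 18.3%), and 75 were among 782 OsxCre cells, a share of 9.59% (7.62 to 11.9%). There was 1 library per Cre line, so that all intervals cover counting error only and no test between the lines was possible.

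Growth plate cartilage is arranged in zones. Round resting cells at the top give rise to columns of flat dividing cells, which leave the cycle as prehypertrophic cells, enlarge into hypertrophic cells and are replaced by bone. SOX9 with SOX5 and SOX6 drives the type II collagen and aggrecan matrix of the upper zones, prehypertrophic cells secrete Indian hedgehog, parathyroid hormone-related protein from resting cells holds back hypertrophy through the receptor PTH1R, and hypertrophic cells make type X collagen.

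The 8-week libraries are each 1 pool of CD45-Ter119-CD31- Ai9+ cells released by enzymes from bone marrow and crushed bone, loaded on the 10X 3′ platform. The Prx1Cre transgene uses a Prrx1 enhancer that is active in limb mesenchyme and the OsxCre transgene uses the Sp7 promoter of bone-committed cells, so that the Ai9 reporter marks all cells that descend from them. The labels give the genotypes OsxCre; Z24fl/fl and PrxCre; Z24fl/fl, while the study describes these mice as carrying Cre and the Ai9 reporter alone. At 16 weeks 1 library was from control mice (PrxCre with Z24fl/+ in the labels) and 1 from conditional knockout mice (CKO, PrxCre with Z24fl/fl). RNA-seq and ATAC-seq were from 20-week-old mice, with 3 control libraries each of CD73+ cells of the growth plate (gpSSPCs) and Sca1+ cells of the periosteum (pSSPCs), and 3 CKO libraries of each kind.

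Zmpste24 (Z24), the protease that matures lamin A, is the gene targeted in the study. The 158 Prx1Cre chondrocyte-like cells held 9 Zmpste24 UMIs (17.1 CPM, UMIs per 1000000 UMIs summed over the cells), compared with 18 (17.5 CPM) in the other Prx1Cre cells. The 75 OsxCre chondrocyte-like cells held 14 UMIs (53.2 CPM), compared with 31 (39.9 CPM) in the other OsxCre cells. At 16 weeks the levels were 25.4 (6 UMIs) and 19.0 CPM in the chondrocyte-like and other cells of the control library, and 0 and 3.21 CPM in those of the CKO library. The levels in other cells at 8 weeks were nearer to that of the 16-week control than to that of the CKO library, while the labels give Z24fl/fl for the 8-week libraries. A 3′ tag lies outside the deleted exon and is no direct check of the deletion.

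The share of UMIs from the 7 genes separated chondrocyte-like cells from the remaining cells with few cells in between. The median share was 4.21% in Prx1Cre (range of 1.20 to 9.63%) and 4.39% in OsxCre (1.27 to 15.3%), whereas 470 of 835 and 457 of 707 other cells had no UMI of these genes. The cells just inside the threshold had 1.20, 1.34 and 1.39% in Prx1Cre and 1.27, 1.40 and 1.70% in OsxCre, and those just outside had 0.975, 0.963 and 0.874% and 0.808, 0.629 and 0.552%. Between 0.5 and 1% there were 15 Prx1Cre and 5 OsxCre cells. A cell was counted as co-expressing when the markers of 1 other cell class held a larger share of its UMIs than the 7 genes. This is easier to meet where the share of the 7 genes is low. Of the 11 Prx1Cre cells between 1 and 2%, 5 were counted as co-expressing. As a band the 11 cells held 32774 CPM of Ibsp, a gene of mineralizing cells, and 3034 CPM of Col10a1 (type X collagen), the latter from 2 cells. Over all shares, 9 Prx1Cre and 7 OsxCre chondrocyte-like cells were counted in this way. A single UMI of another class did not suffice. At least 1 UMI of an osteoblast marker was found in 150 of 158 Prx1Cre and 71 of 75 OsxCre chondrocyte-like cells. Whether the co-expressing cells were pairs of cells was not tested, and the effect of leaving them out is given where it is large.

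**Figure D1:**
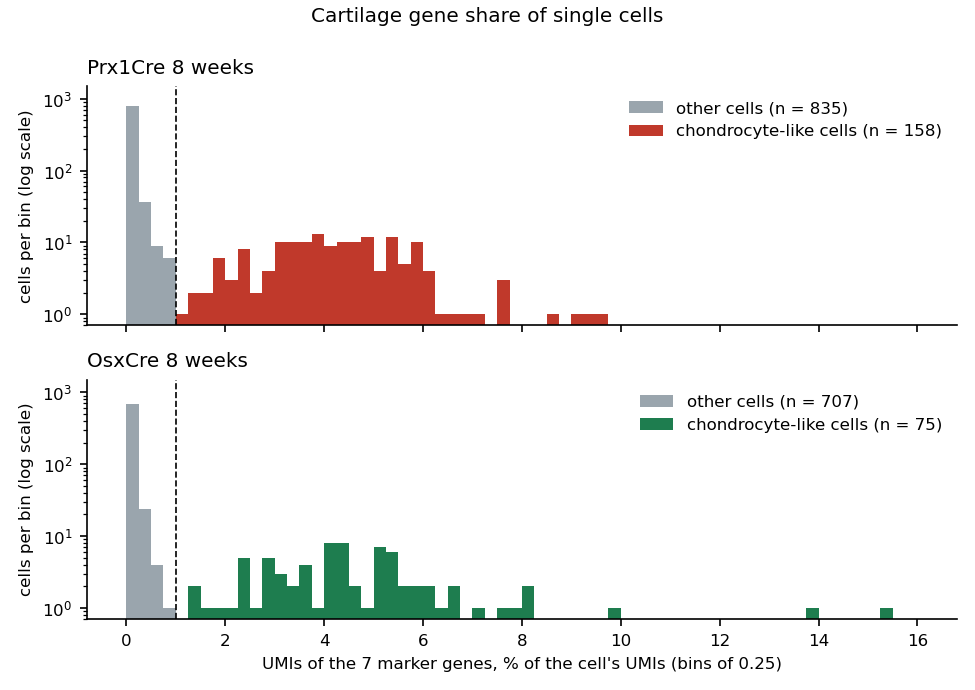
Number of cells (log scale) by the share of their UMIs from the 7 cartilage genes, in bins of 0.25%, for Prx1Cre (top) and OsxCre (bottom) at 8 weeks. Chondrocyte-like cells (colored, 158 and 75) lie right of the dashed line at 1% with medians of 4.21% and 4.39%, and most other cells (grey) lie at or near 0.

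Chondrocyte-like cells were deeply covered. Their median UMI count was 3237 in Prx1Cre (503 to 10482) and 3140 in OsxCre (491 to 9271), compared with 959 and 890 in other cells. They held 33.8% and 25.3% of the UMIs of their libraries. At an equal number of 1000 UMIs per cell the genes detected were close, with medians of 570 against 588 in other cells in Prx1Cre and 555.5 against 596.5 in OsxCre. Depth therefore differed between the cells compared, and shares of cells with a UMI are also given after thinning to 1000 UMIs. The 8-week libraries shared 4 cell barcodes, none of them among chondrocyte-like cells.

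The genes used by the rule encode fibrillar collagen and its partners. Col2a1, the main collagen of cartilage, had 24219 CPM in Prx1Cre and 27435 in OsxCre chondrocyte-like cells and was detected in 99.4% and 100% of them, compared with 373 and 247 CPM in other cells. Cnmd (chondromodulin, an inhibitor of vessel growth) had 5972 and 6465, compared with 92.3 and 51.5 in other cells. Matn3, a matrilin that links collagen fibrils, had 2995 and 2277, compared with 15.6 and 9.01. Since these genes chose the cells, their levels describe the choice only.

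Apart from the rule genes, a long cartilage program came with them. By a ratio of CPM with 10 added to each level, 135 of 2982 genes were over 4-fold higher in chondrocyte-like than in other cells in both lines (4.53%) and 188 were over 4-fold lower (6.3%). Among the 30 genes with the highest mean ratio (the leading genes), 11 were on a list of cartilage matrix genes. The ratios of the 30 genes were 10.4 to 73.5 in Prx1Cre and 16.2 to 100.2 in OsxCre, while the median gene had a log2 ratio of 0.16 and 0.17. These cells were chosen on cartilage genes, so that the ratios are a description. A gene could also pass the filter on detection through chondrocyte-like or other cells alone. The counts here and in the lists below are thus partly set by that filter.

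Matrix genes led. Col9a3, the third chain of type IX collagen on the surface of cartilage fibrils, had 6437 CPM in Prx1Cre and 7051 in OsxCre chondrocyte-like cells, compared with 77.8 and 60.5 in other cells. Acan (aggrecan, the large proteoglycan that holds water) had 2915 (95% Poisson interval of 2770 to 3064) and 3010 (2804 to 3227), compared with 57.3 and 30.9. After thinning, Acan was detected in 92.2% and 81.2% of chondrocyte-like cells and in 4.91% and 3.21% of other cells. Comp, which binds collagens, had 6225 and 9400 compared with 478 and 93.9, and Chad (chondroadherin, a cell attachment protein) had 5403 and 4744 compared with 461 and 100. 3110079O15Rik, the gene symbol in the files for Snorc, a small cartilage membrane proteoglycan, had 12234 and 14778 compared with 231 and 143. Mia, a small protein secreted by cartilage, had 8700 and 11391 compared with 112 and 117. Thus matrix transcripts were present in nearly all chondrocyte-like cells of both lines and at low levels in the others.

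Several matrix genes marked part of the cells. Epyc, a small proteoglycan of cartilage, was detected in 71.5% and 74.7% of chondrocyte-like cells at 794 and 973 CPM, compared with 10.7 and 10.3 in other cells. Matn1, another matrilin, was detected in 25.3% and 24% at 162 and 232 CPM. Ucma, a secreted protein of juvenile chondrocytes, had 1845 (1730 to 1965) in Prx1Cre and 764 (662 to 877) in OsxCre. In OsxCre no other cell had a Ucma UMI, so that the level in chondrocyte-like cells was at least 198-fold higher, with 3 counts over the other cells taken as the floor. Of the 30 leading genes, 19 in Prx1Cre and 21 in OsxCre were detected in at least 50% of the chondrocyte-like cells.

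Regulators and signals of the growth plate were also among the leading genes. Sox9, the master regulator of chondrocytes, had 893 CPM (814 to 977) in Prx1Cre and 821 (715 to 938) in OsxCre, compared with 45.7 and 15.4 in other cells. After thinning, Sox9 was detected in 58.2% and 53.1% of chondrocyte-like cells and in 12 of 387 and 4 of 280 other cells. Ihh (Indian hedgehog, the signal of prehypertrophic cells) had 605 (541 to 676) and 848 (740 to 966), compared with 3.89 and 15.4. Col10a1, the collagen of hypertrophic cells, had 1243 (1150 to 1342) and 772 (669 to 885), compared with 16.5 and 10.3. Ihh was detected in 24.7% and 44% of the cells and Col10a1 in 16.5% and 21.3%. Panx3, a channel protein of maturing chondrocytes and osteoblasts, had 331 and 555 compared with 6.80 and 11.6. Papss2, which makes the sulfate donor for proteoglycans, had 478 and 502 compared with 22.4 and 18.0.

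**Figure D2:**
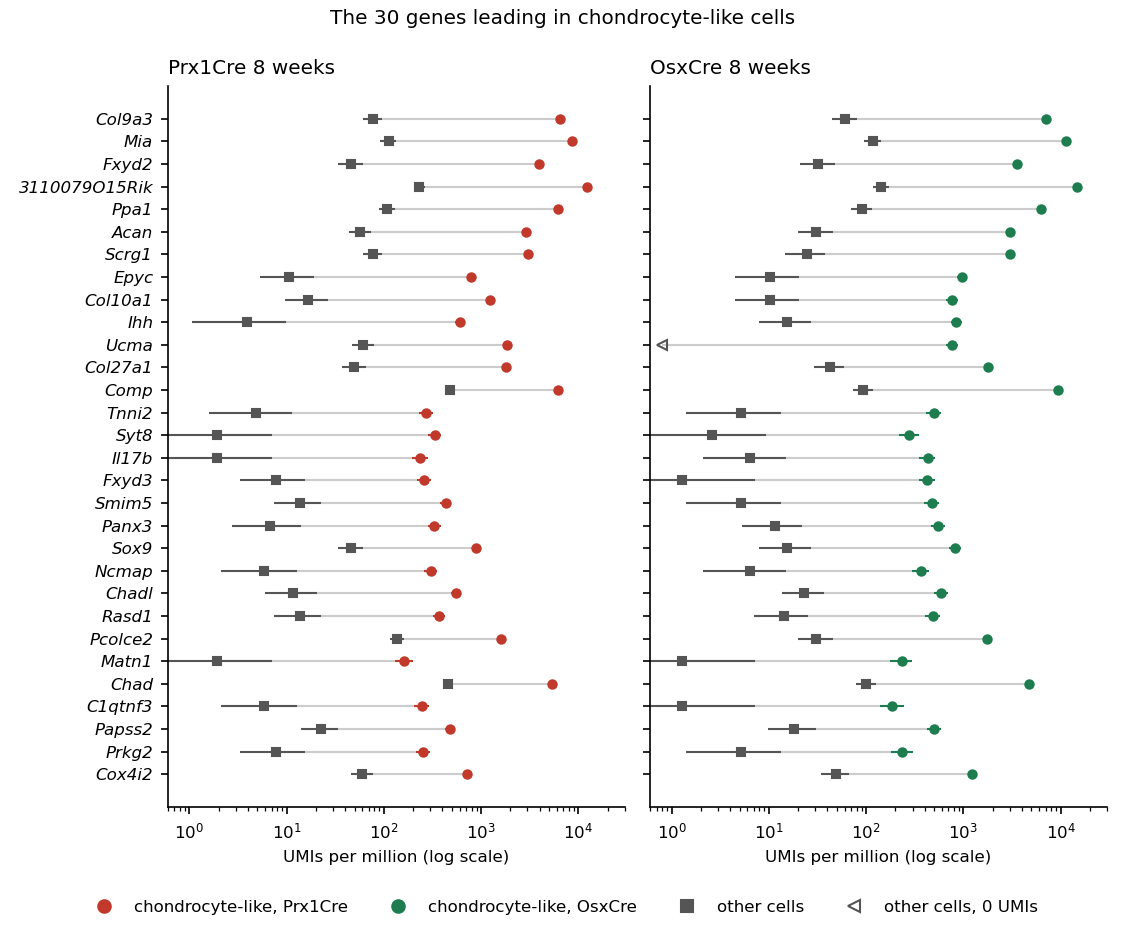
CPM (log axis) of the 30 leading genes in chondrocyte-like cells (circles) and other cells (squares) of the Prx1Cre and OsxCre libraries, with 95% Poisson intervals as horizontal bars and open triangles for 0 UMIs. In both libraries every gene lies over 10-fold higher in chondrocyte-like cells by the ratio with 10 added.

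The lists of growth plate genes gave a graded picture. Of 25 cartilage matrix genes that passed the detection filter, 19 were over 4-fold higher in chondrocyte-like cells in both lines and 1 was over 4-fold lower, with a median log2 ratio of 3.29. The one that was lower was Dcn (decorin, a proteoglycan of fibrous tissue), with 396 and 319 CPM compared with 5198 and 1410. Of 14 regulators of chondrocytes, 5 were higher (Sox9, Sox6, Sox8, Foxa3 and Wwp2) and 2 were lower (Runx1 and Nfia). Sox9, Sox6 and Foxa3 passed the detection filter through chondrocyte-like cells alone, so that this count is partly set by the filter and is a description only. Sox6, the partner of SOX9, had 57.1 and 45.6 compared with 2.92 and 1.29. Foxa3, a forkhead factor of maturing chondrocytes, had 85.7 compared with 3.89 in Prx1Cre and was at least 37.4-fold higher in OsxCre, where no other cell had a UMI. Of 9 prehypertrophic genes 4 were higher (Ihh, Pth1r, Fgfr3 and Panx3) and 1 was lower (Bmp6), with Pth1r at 1968 and 3440 compared with 265 and 368. Fgfr3, the receptor that restrains growth plate division, had 101 and 198 compared with 13.6 and 21.9.

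The counts of the other lists are to be read beside the 4.53% of all genes that were over 4-fold higher and the 6.3% that were lower. Of 7 hypertrophic genes that passed the filter only Col10a1 was higher and Mmp13, the collagenase of hypertrophic cells and osteoblasts, was lower, with 7.61 and 22.8 compared with 728 and 1321. Of 5 resting zone genes Ucma was higher and Clu was lower. Of 22 genes of secretion and collagen processing 1 was higher (Plod2, a collagen lysyl hydroxylase, with 1098 and 920 compared with 224 and 153) and 1 was lower (Lox), with a median log2 ratio of 0.59, shares near those of all genes. Of 12 hypoxia and glycolysis genes 2 were higher (Pgk1 and Eno1, both enzymes of glycolysis), with a median of 1.25. Of 3 hedgehog and PTHrP genes 2 were higher (Ihh and Pth1r). Of 11 genes of FGF, BMP and Wnt signalling 2 were higher (Fgfr3 and Wnt5b) and 3 were lower (Bmp4, Bmp6 and Grem1). Of 2 Serpina1 genes both were higher, but their near-identical copies can share reads. Of the 18 cycling genes none passed the filter in both lines. Of 5 surface proteins used for sorting progenitors 3 were lower (Vcam1, Lepr and Pdgfrb). The nuclear lamina list had 2 genes pass, neither over 4-fold different, and of 2 genes of the articular and superficial zone 1 was higher (Pcolce2). Prg4, the lubricin of the joint surface, had 43.8 and 3.80 CPM compared with 2147 and 606 in other cells.

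Of 17 genes that respond to tissue dissociation, 3 were over 4-fold higher in chondrocyte-like cells (Atf3, Ier2 and Dnajb1) and none was over 4-fold lower, with a median log2 ratio of 1.27. Fos, a transcription factor induced by stress, had 4864 and 3584 CPM in chondrocyte-like cells compared with 1687 and 1529, which is under 4-fold. The part of dissociation in the other differences was not tested.

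Markers of bone marrow stromal cells (BMSCs), osteoblasts (OBs) and periosteal mesenchymal cells (PMSCs) were lower in chondrocyte-like than in other cells, while those of tenocytes and Schwann cells were higher through 1 gene each. The 10 genes with the lowest ratio included Cxcl12, the chemokine of bone marrow stromal cells, with 265 and 346 CPM compared with 11803 and 14107 in other cells, and Col1a1, the collagen of bone, with 504 and 190 compared with 13387 and 13989. The other 8 were Igfbp4, Mmp13, Igfbp5, Fbln5, Car3, Ifitm3, Hp and Vcam1. Summed over 10 BMSC markers the level was 718 and 870 CPM, compared with 24433 and 30317 in other cells. Summed over 10 OB markers it was 9684 and 5614, compared with 81059 and 84644, and Ibsp was the most abundant with 2583 and 1961. Cells near the threshold carried much of it. In Prx1Cre, Ibsp had 32774 CPM in cells with 1 to 2% of rule gene UMIs and 347 at 5% or more. In OsxCre it had 11483 at 2 to 3% and 419 at 5% or more. The median chondrocyte-like cell had 0.202% and 0.194% of its UMIs from OB markers, compared with 1.32% in other cells of both lines. Summed over 10 PMSC markers it was 506 and 342, compared with 9497 and 2276, led by Dcn, with 3 and 6 markers at 0. Pericyte markers summed to 166 and 186, compared with 501 and 600 in other cells, and were nearly all Cspg4, a proteoglycan that chondrocytes also make. Tenocyte markers summed to 1123 and 1095, compared with 288 and 38.6, and were nearly all Fmod, which is also on the cartilage matrix list. Endothelial markers summed to 45.7 and 57.0 with 6 of 8 at 0, Schwann cell markers to 310 and 365, compared with 7.78 and 9.01 in other cells and nearly all the leading gene Ncmap, and erythroid markers to 43.8 and 3.80. Myeloid markers summed to 83.8 and 83.6, led by Ctsk, and lymphoid markers to 1.90 and 0. The 12 chondrocyte markers summed to 71187 and 81929, with none at 0, but 7 of them are the genes that chose the cells and do not check the name. The other 5 (Acan, Sox9, Col9a3, Mia and Comp) were each over 4-fold higher in both lines.

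Nt5e encodes CD73, by which the study sorted growth plate cells. It was detected in 43 of 158 Prx1Cre chondrocyte-like cells (27.2%) and 18 of 75 OsxCre cells (24%), compared with 2.87% and 1.27% of other cells. At 1000 UMIs per cell it was detected in 7.09% and 10.9%, compared with 4.13% and 1.07%. In Prx1Cre the intervals of these shares (3.45 to 12.7% and 2.38 to 6.63%) overlapped at equal depth. Ly6a (Sca1) had 22.8 CPM in Prx1Cre chondrocyte-like cells, compared with 279 in other cells. In OsxCre it was near absent from both, with a UMI in 1 of 75 chondrocyte-like and 4 of 707 other cells.

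The range from resting to hypertrophic cells was read from zone genes. Hypertrophic cells were those with at least 2 Col10a1 UMIs, prehypertrophic cells those with Ihh and fewer than 2 Col10a1 UMIs, cycling cells those with UMIs of at least 3 of 18 cycling genes, and cells of the resting list those with at least 3 of 10 resting zone genes. In Prx1Cre, 18 of 158 cells were hypertrophic (11.4%, 6.89 to 17.4%), 23 were prehypertrophic (14.6%, 9.46 to 21.0%) and 32 were cycling (20.3%, 14.3 to 27.4%). In OsxCre, 14 of 75 were hypertrophic (18.7%, 10.6 to 29.3%), 23 were prehypertrophic (30.7%, 20.5 to 42.4%) and 4 were cycling (5.33%, 1.47 to 13.1%). None of the 4 criteria was met by 75 and 32 cells. Among other cells the shares were 0.12% and 0.283% for hypertrophic, 0.479% and 0.566% for prehypertrophic and 0.359% and 0.141% for cycling, all below those in chondrocyte-like cells. The other cells were shallower and were not thinned for these criteria, so that part of this comparison is one of depth.

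The prehypertrophic share was higher in OsxCre than in Prx1Cre with all UMIs, where the intervals above overlapped narrowly, and at equal depth, where they did not overlap. With 141 Prx1Cre and 64 OsxCre cells thinned to 1000 UMIs, and 17 and 11 shallower cells left out, prehypertrophic cells were 11.3% (6.63 to 17.8%) in Prx1Cre and 32.8% (21.6 to 45.7%) in OsxCre. Hypertrophic cells were 8.51% (4.48 to 14.4%) and 14.1% (6.64 to 25.0%), with overlapping intervals. Cycling cells were 11.3% (6.63 to 17.8%) and 4.69% (0.977 to 13.1%), and at this depth their intervals overlapped, whereas with all UMIs they did not. Resting list cells were 17.1% and 12% with all UMIs and 3.55% and 1.56% after thinning. With all UMIs the criterion was met by 6.35% and 5.94% of other cells, which were shallower and were not thinned for it. Of the 27 Prx1Cre cells that met it with all UMIs, 7 were also hypertrophic and 6 prehypertrophic. Of the 9 OsxCre cells, 3 were also hypertrophic and 4 prehypertrophic. Cd200 is on both the resting and the prehypertrophic list. The resting list shares are therefore not shares of resting zone cells. Whether the shares differ between mice of the lines was not tested, since each line was 1 pool.

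**Figure D3:**
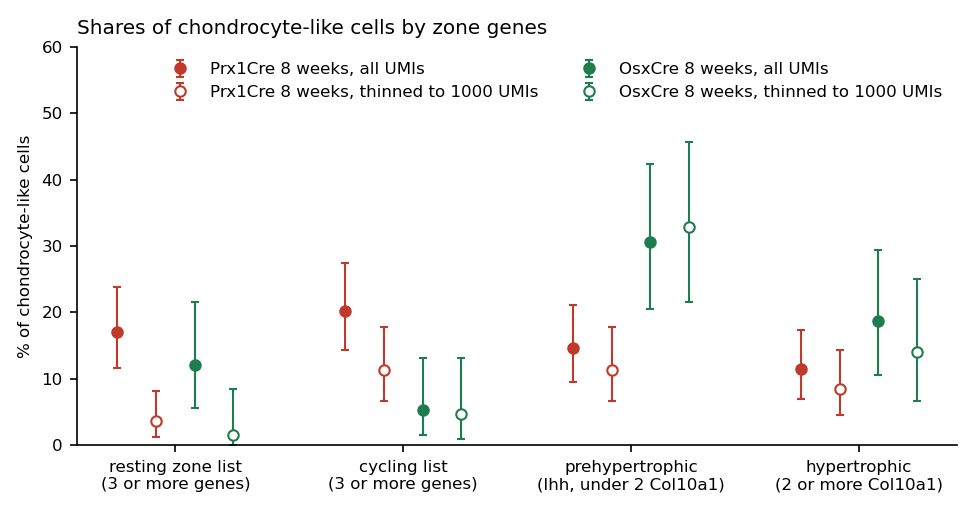
Percent of chondrocyte-like cells that met each zone criterion in Prx1Cre and OsxCre at 8 weeks, with all UMIs (filled) and after thinning to 1000 UMIs per cell (open). Bars are 95% exact binomial intervals, and those of prehypertrophic cells after thinning, 6.63 to 17.8% and 21.6 to 45.7%, do not overlap.

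Several genes of maturation followed the zone groups, but Ihh did not set the prehypertrophic cells apart from the hypertrophic ones. Ihh was also found in 16 of 18 Prx1Cre and 10 of 14 OsxCre hypertrophic cells, at 2736 and 1489 CPM. Mmp13 had only 4 and 6 UMIs in all chondrocyte-like cells, so that the hypertrophic group rests on Col10a1. Cells were put in 1 group each, hypertrophic first, then prehypertrophic, then resting list, with 103 Prx1Cre and 36 OsxCre cells remaining. Pth1r, the receptor that holds back hypertrophy, had 1207 CPM (95% Poisson interval of 1084 to 1341) in the remaining Prx1Cre cells, 2861 (2547 to 3204) in prehypertrophic and 4416 (3959 to 4912) in hypertrophic cells. In OsxCre it had 1484 (1255 to 1742), 4125 (3733 to 4546) and 5739 (5101 to 6436), and without the co-expressing cells the hypertrophic levels were 4292 and 5905. Mef2c, a transcription factor that promotes hypertrophy, had 229, 722 and 1186 in Prx1Cre and 368, 569 and 1528 in OsxCre. Alpl, the phosphatase of mineralizing cells, had 229, 684 and 1094 in Prx1Cre and 99.6, 681 and 960 in OsxCre. These 3 genes had the same order in both lines, and their intervals in remaining and hypertrophic cells did not overlap. Panx3 had 201, 637 and 508 in Prx1Cre and 199, 792 and 764 in OsxCre, and was thus higher in both maturing groups than in the remaining cells.

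Other genes had the reverse order. Ucma had 2328, 979 and 612 CPM in remaining, prehypertrophic and hypertrophic Prx1Cre cells, and 1125, 620 and 313 in OsxCre. Mgp (matrix Gla protein, an inhibitor of calcification) had 9432, 3612 and 1824 in Prx1Cre and 5676, 2753 and 1469 in OsxCre. Prelp, a matrix proteoglycan, had 1568, 799 and 352 in Prx1Cre and 2181, 1036 and 411 in OsxCre. For these 3 genes the intervals in remaining and hypertrophic cells did not overlap in either line. Ptch1, a receptor and target of hedgehog signalling, had 205, 114 and 39.1 in Prx1Cre and 179, 81.3 and 58.8 in OsxCre, with 3 UMIs in the hypertrophic cells of each line and overlapping intervals in OsxCre (106 to 283 and 12.1 to 172). Top2a, a topoisomerase of dividing cells, had 187, 9.51 and 0 in Prx1Cre and 159, 0 and 0 in OsxCre. Acan (2786, 3527 and 2892 in Prx1Cre and 2898, 3343 and 2468 in OsxCre) and Sox9 (860, 1074 and 834, and 896, 803 and 784) were within 2-fold across these groups. The 14 Prx1Cre cells of the resting list had 17053 CPM of Mgp, which is not on that list. In OsxCre only 2 cells were in this group, too few to describe.

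**Figure D4:**
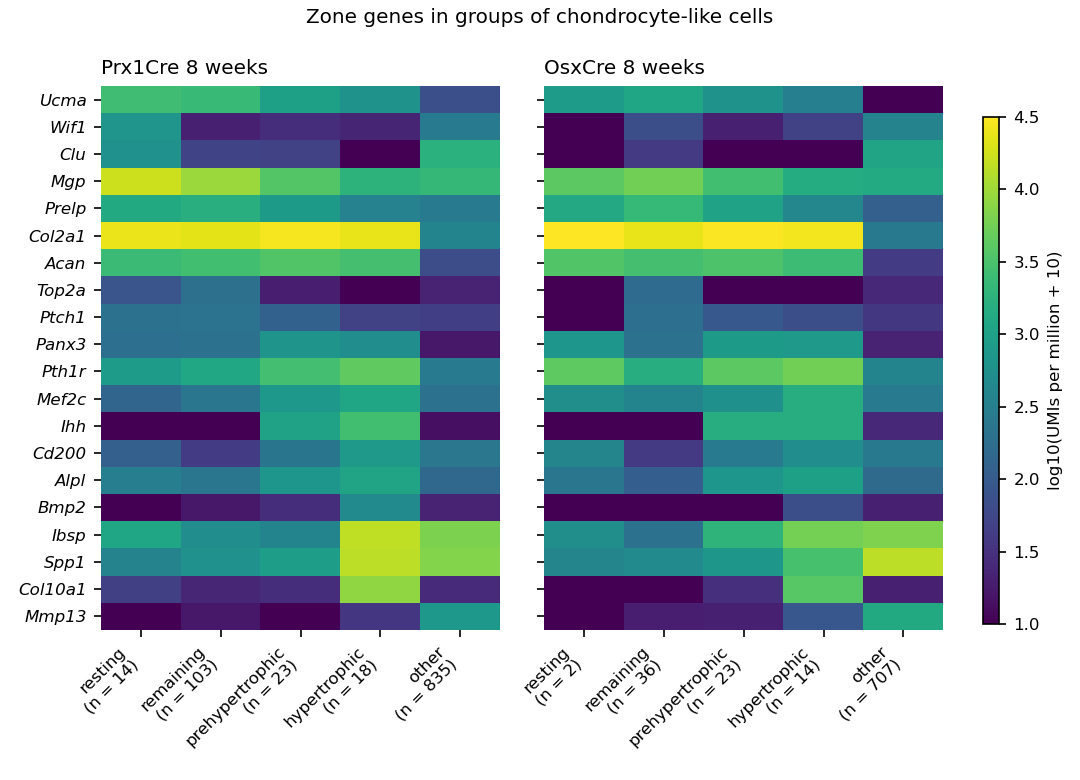
Levels of 20 zone genes as log10 of CPM plus 10 (color) in the exclusive groups of chondrocyte-like cells and in other cells, for Prx1Cre and OsxCre. Pth1r and Alpl are brighter and Ucma and Mgp darker from remaining to hypertrophic cells in both lines, and the OsxCre resting column holds 2 cells.

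Hypertrophic cells had higher levels of several genes than the other chondrocyte-like cells, part of which rested on a few cells. Besides Col10a1, which chose them, the genes with the highest ratio over the other chondrocyte-like cells were Bmp2, Spp1, Ibsp, Hpgd, Fam43a, F13a1, Ddit4l, Tcf7l2 and Loxl4. Ibsp (bone sialoprotein) had 14421 CPM in Prx1Cre and 5935 in OsxCre hypertrophic cells and was detected in 14 of 18 and 13 of 14 cells. Without the co-expressing cells, in 14 and 12 cells, it had 6599 and 2358. Ibsp and Spp1 are among the OB markers by which a cell was counted as co-expressing. Their lower levels without such cells are thus partly set by that criterion. Spp1 (osteopontin) had 13965 and 2977, of which 1 cell gave 47.9% and 93.4% of the UMIs, and without the co-expressing cells it had 2001 and 185. The Spp1 level was thus mainly that of single cells in OsxCre. Bmp2, a bone-inducing growth factor, had 443 and 58.8, the latter from 3 UMIs. F13a1, a transglutaminase chain, had 782 and 372 compared with 62.4 and 61.3 in the other chondrocyte-like cells, and Hpgd, which degrades prostaglandins, had 638 and 274 compared with 22.3 and 33.0.

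Osteoblast markers were unequal in the hypertrophic cells. Dmp1, a gene of osteocytes and late osteoblasts, had 0 UMIs in both lines. Ifitm5, an osteoblast membrane protein, had 0 and 78.4 CPM, and Col1a1 had 143 and 411. Bglap (osteocalcin) had 2840 and 1175, of which 1 cell gave 51.4% and 16.7% of the UMIs. Without the co-expressing cells Bglap had 1662 in Prx1Cre and Col1a1 had 226 in OsxCre, and both are OB markers of that criterion. Among genes with the lowest ratio in hypertrophic cells were Mgp and Prelp, with the orders above, the cell division genes H2afz (248 compared with 1084 in Prx1Cre and 97.9 compared with 623 in OsxCre) and Tubb5 (91.2 compared with 406, and 39.2 compared with 283), and Trpv4, a calcium channel of chondrocytes (52.1 compared with 201, and 58.8 compared with 203). In hypertrophic cells of Prx1Cre and OsxCre, Tubb5 rested on 7 and 2 UMIs and Trpv4 on 4 and 3.

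Chondrocyte-like cells of the lines were alike in most genes. Of 3664 genes, 134 were over 2-fold higher in Prx1Cre (3.66%) and 88 over 2-fold higher in OsxCre (2.4%), with a median log2 ratio of 0.00 and no replicate check. A gene could pass the detection filter through 1 line alone. E2f4 did so with 10.1% of Prx1Cre and 0% of OsxCre cells, and Gm10093 with 0% and 12%. These counts and the genes named below are thus partly set by the filter and are a description only. Of the 30 leading genes 29 were within 2-fold, and the exception was Ucma. Of 25 cartilage matrix genes, Ucma and Mgp (7954 compared with 3691 CPM) were over 2-fold higher in Prx1Cre, and the median log2 ratio was 0.01. The 8 cycling genes that passed the detection filter did so through Prx1Cre alone, so that no count of them is given. Over all 18 cycling genes the ratios of Prx1Cre over OsxCre were 1.27 (Hmmr) to 4.22 (Pcna). Cdk1, the kinase that starts mitosis, had 122 compared with 30.4. Of 9 prehypertrophic genes none was over 2-fold different, and their median log2 ratio of Prx1Cre over OsxCre was -0.56. Their ratios were between 0.53 (Fgfr3) and 1.64 (Wnt4, a Wnt ligand with 43.8 compared with 22.8 CPM), and Wnt4 was the one with a ratio above 1. Without hypertrophic cells the ratio of Ihh was 0.36, over 2-fold higher in OsxCre, and that of the matrix gene Cytl1, a secreted protein, moved from 1.43 to 8.44. None of 17 dissociation genes was over 2-fold different, while without hypertrophic cells Hspa1a and Ier3 were over 2-fold higher in Prx1Cre.

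Of the 20 genes with the largest differences between the lines, Clu was on the resting zone list, Pcna on the cycling list and Serpina1b on the Serpina1 list. Mt1, a metallothionein that binds zinc, had 487 CPM (429 to 551) in Prx1Cre and 34.2 (15.6 to 64.9) in OsxCre chondrocyte-like cells, a ratio of 11.3 with 10 added, compared with 1.73 in other cells. The OsxCre level of Mt1 rested on 9 UMIs in 5 cells, of which 1 cell gave 55.6%, and the ratio was 29.1 without hypertrophic cells and 18.0 by the mean over cells. Serpina1b, a protease inhibitor with near-identical copies, had 461 and 53.2, the latter from 14 UMIs in 4 cells, and its ratio of 7.45 was 11.6 by the mean over cells. In other cells Serpina1b was 2.48-fold higher in Prx1Cre. Meg3, an imprinted noncoding RNA, had 200 and 30.4, but was also 2.27-fold higher in other Prx1Cre cells. The other 7 named genes higher in Prx1Cre were M1ap, Clu, E2f4, Pcna, Prc1, F3 and Tmem41b. By the mean over cells the ratio of Clu was 1.92, under 2-fold, and 1 cell gave 27.1% of its Prx1Cre UMIs. With 100 CPM added, only M1ap of these 7 stayed over 2-fold. Higher in OsxCre were Gstp1, a glutathione transferase with 26.7 compared with 175, and Il15ra, an interleukin receptor chain with 13.3 compared with 103. Gstp1 has a near-identical copy, and its ratio in other cells was 0.298. Rps27rt (371 compared with 1391), Gm10093, Lyrm4, 2900076A07Rik, Gm47283, Hspb1, Srd5a3 and Rnf146 were the other 8. With 100 CPM added, only Gstp1 and Rps27rt of the 10 genes higher in OsxCre stayed over 2-fold. Of the 10 genes named for each line, 2 in Prx1Cre and 4 in OsxCre were over 2-fold different in the same direction in other cells, and were thus not particular to chondrocyte-like cells.

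Fewer chondrocyte-like cells were found at 16 weeks. By the same rule they were 61 of 2068 cells in the control library (2.95%, 2.26 to 3.77%) and 19 of 2362 in the CKO library (0.804%, 0.485 to 1.25%). Age, genotype and library cannot be told apart from the 8-week libraries, and control and CKO had 1 library each. Of the control cells 7, and of the CKO cells 6, were counted as co-expressing markers of another class. Of the leading genes, 27 of 30 were over 4-fold higher than in other cells in each library. The exceptions were Ihh, Matn1 and C1qtnf3 in control and Col10a1, Matn1 and C1qtnf3 in CKO, where Col10a1 and Matn1 had 0 UMIs in all cells. The background shares were 5.72% of 3865 genes in control and 5.18% of 4903 in CKO. Acan had 2088 CPM in control and 2559 in CKO chondrocyte-like cells, compared with 8.89 and 5.55 in other cells. Chad had 10272 and 8294. Sox9 had 968 and 794. Matrix transcripts were thus again found mainly in chondrocyte-like cells.

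Hypertrophic and prehypertrophic cells were few at 16 weeks. Col10a1 had 161 CPM in control (38 UMIs) and 0 in CKO chondrocyte-like cells, and hypertrophic cells were 2 of 61 and 0 of 19. Among the 2007 other cells of the control library, 2 more met the hypertrophic criterion. All 2007 other cells together held 48 Col10a1 and 28 Ihh UMIs, compared with 38 and 13 in chondrocyte-like cells. A count of 0 of 19 allows a share of up to 17.6% (exact binomial). Prehypertrophic cells were 3 and 1, and cycling cells 2 and 1. Ihh had 55.0 and 529, the latter all from 1 prehypertrophic cell, and Panx3 had 330 and 290, compared with 331 in Prx1Cre at 8 weeks. Ucma had 1509 and 1450, between its levels in OsxCre and Prx1Cre at 8 weeks.

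The leading genes were then examined in RNA-seq of control cells sorted at 20 weeks, which were not used to choose them. They were higher in gpSSPCs than in pSSPCs. Of the 30 genes, 29 were above in every gpSSPC library compared with every pSSPC library, where 13.7% of all 13173 genes were, and the exception was C1qtnf3. Their log2 fold changes were 0.92 to 3.34 with a median of 2.14, compared with a median of -0.03 over all genes. In these sorted cells, fewer cells of a type and less RNA per cell cannot be told apart.

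By edgeR's quasi-likelihood test no gene passed a Benjamini-Hochberg adjusted p of 0.05 (0% higher and 0% lower, lowest adjusted p = 0.168), while 287 genes higher and 528 lower had an unadjusted p under 0.05, among them 29 leading genes. DESeq2 called 75 higher and 166 lower. Replicates 2 and 3 of each group differed by no more than sampling noise over genes with 5 to 99 counts and were counted as 1 sample, although over genes with at least 20 counts they differed beyond it (chi-square divided by its degrees of freedom of 1.59 to 1.92). With each library counted as a sample, edgeR called 259 genes higher and 300 lower, among them 26 leading genes higher. Replicate 1 stood apart in both populations, and with the replicate number as a block edgeR called 164 genes higher (1.24%) and 312 lower (2.37%). Of the leading genes 28 of 30 were then higher, all but Matn1 (adjusted p = 0.117) and C1qtnf3 (adjusted p = 0.505).

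Matrix genes had some of the largest differences. Acan had 452, 445 and 391 CPM in the pSSPC replicates 1, 2 and 3, and 2944, 4982 and 3927 in the gpSSPC replicates, a log2 fold change of 3.02 ± 0.40 (SE; adjusted p = 0.168, and 1.44e-10 with the replicate block, edgeR). Col2a1 had 4076, 2386 and 2045, and 24970, 15388 and 15146 (log2 fold change of 2.61 ± 0.56; adjusted p = 0.354, and 6.37e-13 with the block, edgeR). For both genes the populations did not overlap, but pSSPC libraries also held cartilage transcripts. Comp had 1292, 1495 and 1331, and 3048, 4061 and 4057 CPM (adjusted p = 5.33e-05 with the block, edgeR). Mia, with 155, 167 and 142, and 242, 632 and 539, was lowest in replicate 1 of the gpSSPCs (adjusted p = 0.0229 with the block, edgeR).

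Sox9, Ihh, Col10a1 and Ibsp were also higher in gpSSPCs with the block. Sox9 had 631, 301 and 280 CPM in pSSPCs and 1722, 1039 and 1003 in gpSSPCs (log2 fold change of 1.49 ± 0.59; adjusted p = 0.709, and 6.9e-05 with the block, edgeR). Ihh had 16.5, 58.2 and 42.0, and 85.8, 264 and 236 (2.34 ± 0.87; adjusted p = 0.681, and 0.00192 with the block, edgeR). Both were higher in every gpSSPC library. Col10a1 had 193, 136 and 112, and 1024, 645 and 673 (2.36 ± 0.51; adjusted p = 0.354, and 3.28e-06 with the block, edgeR). Ibsp had 7086, 1460 and 1358, and 47398, 7997 and 9339, with replicate 1 high in both populations (adjusted p = 9.44e-14 with the block, edgeR). Dcn, the matrix gene that was lower in chondrocyte-like cells, had 12439, 18677 and 20489 in pSSPCs and 4616, 5964 and 6052 in gpSSPCs (log2 fold change with the block of -1.62, adjusted p = 2.58e-08, edgeR).

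Counted by list with the block, beside 1.24% of all genes higher and 2.37% lower, 17 of 28 cartilage matrix genes were higher in gpSSPCs and 1 was lower (Dcn). Of 10 prehypertrophic genes 6 were higher, of 9 hypertrophic genes 6 were higher, and of 17 regulators 7 were higher and 1 was lower (Nfia). Of 10 resting zone genes 3 were higher, including Nt5e, which was used to sort the cells and is no finding. Of 18 dissociation genes 3 were higher and 0 lower, and the part of dissociation in this comparison was not tested. Of 14 surface proteins used for sorting progenitors 3 were higher and 4 were lower. That list includes Nt5e and Ly6a, by which the cells were sorted, so that its counts are partly set by the sort. Of 16 cycling genes none was called higher or lower, although their median log2 fold change with the block was 1.86. The 10 genes lowest in chondrocyte-like cells gave 2 higher, among them Mmp13 (208, 71.7 and 60.4, and 495, 272 and 263 CPM), and 3 lower. Zmpste24 had 0.75, 16.8 and 16.9 CPM in pSSPC and 4.65, 15.0 and 15.9 in gpSSPC controls.

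**Figure D5:**
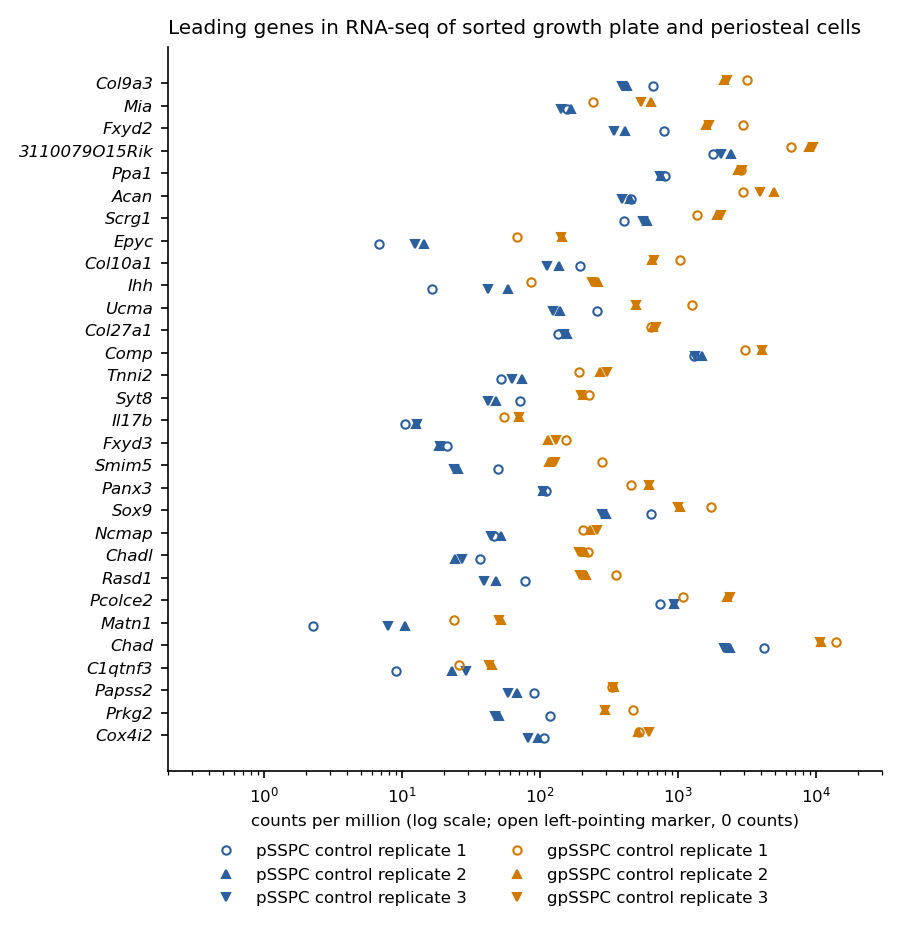
CPM (log axis) of the 30 leading genes in the 3 pSSPC control (blue) and 3 gpSSPC control (orange) RNA-seq libraries, 1 marker per library. In 29 genes every gpSSPC library lies above every pSSPC library, and replicates 2 and 3 lie close together.

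Promoters of the leading genes were compared with the ATAC-seq peaks of the control gpSSPC and pSSPC libraries. Of the leading genes 17 were matched to a table of RefSeq promoters (mm10, GRCm38.p6), which gave 22 promoters of 250 bases before the start site. Of these, 11 (50%) overlapped a peak in all 3 gpSSPC libraries and in no pSSPC library, compared with 2.47% of all 32851 promoters. They belonged to Mia, Acan, Ihh, Ucma, Syt8, Fxyd3, Ncmap, Chadl and Chad, with 2 promoters each for Syt8 and Ncmap. The 2 Syt8 promoters overlap and had the same fold enrichment (2.38, 2.16 and 2.23), so that this peak was counted for both. None of the 22 had a peak in all pSSPC and no gpSSPC libraries (0.578% of all promoters). The gpSSPC libraries had 98549, 93028 and 88095 peaks and the pSSPC libraries 63516, 59209 and 79724, so that more peaks were called in gpSSPCs throughout.

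The promoters below are printed because their peaks set the growth plate apart, beside that of Col10a1, which had no peak. Each is the sequence before the start site on the gene's strand. Capitals mark the letters ACAAAG, which SOX factors can bind. A second form of them, AACAAT, is marked too. The TATA box was searched as TATAAA. All were searched on both strands, and in the promoters printed the marked runs do not overlap. The fold enrichment of the peak at Acan was 3.49, 3.69 and 3.96 in gpSSPC replicates 1, 2 and 3, at chr7:79052976-79053225 (plus strand).
Acan: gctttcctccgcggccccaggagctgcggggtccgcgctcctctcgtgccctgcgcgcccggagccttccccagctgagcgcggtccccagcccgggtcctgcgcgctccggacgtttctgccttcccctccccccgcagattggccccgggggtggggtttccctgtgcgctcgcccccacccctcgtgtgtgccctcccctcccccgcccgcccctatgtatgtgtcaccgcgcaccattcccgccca
At Ihh, at chr1:74951673-74951922 (minus strand), the fold enrichment was 5.39, 3.89 and 3.23.
Ihh: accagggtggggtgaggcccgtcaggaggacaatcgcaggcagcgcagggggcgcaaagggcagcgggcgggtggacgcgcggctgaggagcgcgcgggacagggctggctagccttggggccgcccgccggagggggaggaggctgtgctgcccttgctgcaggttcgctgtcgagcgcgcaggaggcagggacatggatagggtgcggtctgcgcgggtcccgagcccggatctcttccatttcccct
At Ucma, at chr2:4975872-4976121 (plus strand), it was 8.41, 11.2 and 8.79.
Ucma: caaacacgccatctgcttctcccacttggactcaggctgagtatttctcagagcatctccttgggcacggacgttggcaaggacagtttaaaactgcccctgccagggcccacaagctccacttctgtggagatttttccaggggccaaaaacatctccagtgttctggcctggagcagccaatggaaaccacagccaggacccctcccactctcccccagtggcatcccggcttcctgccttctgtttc
At Chad, at chr11:94564797-94565046 (plus strand), it was 3.45, 3.72 and 3.62.
Chad: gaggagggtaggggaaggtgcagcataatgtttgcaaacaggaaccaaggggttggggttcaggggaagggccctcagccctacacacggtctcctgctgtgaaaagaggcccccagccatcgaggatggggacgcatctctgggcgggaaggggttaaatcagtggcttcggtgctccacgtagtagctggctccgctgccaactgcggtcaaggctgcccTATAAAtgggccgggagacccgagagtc
The promoter of Col10a1 is at chr10:34389731-34389980 (plus strand).
Col10a1: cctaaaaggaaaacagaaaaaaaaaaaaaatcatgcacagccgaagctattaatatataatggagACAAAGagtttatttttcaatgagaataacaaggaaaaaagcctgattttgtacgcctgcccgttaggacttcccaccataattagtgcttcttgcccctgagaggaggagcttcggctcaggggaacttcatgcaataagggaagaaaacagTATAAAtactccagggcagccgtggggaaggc

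The SOX letters were found in 6 of 22 promoters of the leading genes (27.3%), compared with 24% of all promoters, and TATAAA in 3 of 22 (13.6%), compared with 12.4%. Neither share stood far from that of all promoters. Among the rule genes, 4 of 7 promoters had a peak in all 3 gpSSPC libraries and in no pSSPC library (57.1%), those of Col9a1, Col9a2, Col11a2 and Cnmd. Col10a1, Epyc and Matn1 had no peak in any control library. The Mmp13 promoter also had a peak in all 3 gpSSPC libraries and in no pSSPC library, while its transcript was low in chondrocyte-like cells at 8 weeks.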

How the data were processed

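The authors made UMI counts per gene and cell with Cell Ranger (3.1.0 per the file headers) on mm10, RNA-seq counts per gene with STAR and HTSeq after removal of duplicate molecules, and ATAC-seq peaks per library with Bowtie2 and MACS2 2.2.7.1 without a control library; deposited counts are not normalized. The fold enrichment in the deposited peak lists is a ratio to the local background within a library and was not scaled between libraries.

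UMIs of cells with at least 200 genes were summed per library over chondrocyte-like and other cells and divided by the total. Ratios were taken after adding 10 CPM, for genes detected in at least 10% of the cells compared, with calls past 4-fold (other cells) or 2-fold (between lines). Doublets were not removed, and co-expressing cells were left out as an alternative. Named genes were the 30 highest and 10 lowest by mean ratio without the rule genes, the 10 with the largest ratio in each direction between lines, the 10 with the highest ratio in hypertrophic cells, and the listed genes. The members and gene lists were chosen with earlier results of these data known.

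RNA-seq counts (1333260 to 5315709 per library, 12 libraries, of which replicates 2 and 3 of each group were summed to give 8 samples) were tested with edgeR 4.0.16 (TMM, filterByExpr, quasi-likelihood, Benjamini-Hochberg adjusted p under 0.05) in R 4.3.3. DESeq2 1.42.0, no filter, each library as a sample, the control groups alone and a fit without each control sample were alternatives. Over genes with 5 to 99 counts replicates 2 and 3 gave a chi-square divided by its degrees of freedom of 0.82 to 0.98. At 20 or more counts per gene the value rose to 1.59 to 1.92, beyond sampling noise (pairs that include replicate 1 gave 53.2 to 71.5), and whether these libraries are separate samples was not tested. The numbers were taken to pair the samples, since libraries of equal number in gpSSPCs and pSSPCs deviated together from their group means, with correlations of 0.559, 0.529 and 0.522. Replicates 2 and 3 correlated as well across populations (0.507 and 0.526), and what libraries of 1 number have in common is not given in the labels. Whether replicates came from separate animals is not given in the sources used here, so p-values measure the spread between these samples, which may be technical. Of 53801 gene identifiers, 53620 were matched to a symbol. A promoter had a peak at an overlap of at least 1 base. Scripts were tested on simulated data. Python 3.11.15 with numpy 2.4.6, scipy 1.17.1 and pandas 2.3.3 was used.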

Additional observations from a re-analysis of the deposited data

How the results depend on the processing

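The share of chondrocyte-like cells was 21.5% in Prx1Cre and 13.7% in OsxCre among cells with at least 500 genes, since fewer shallow other cells remained. With 100 CPM added, 30 genes were over 4-fold higher and 54 lower than in other cells. Of the 30 leading genes, 21 remained among the leading 30 with 1 or with 100 CPM added, and 27 to 30 under the other alternatives. Without the detection filter 332 were lower. Between the lines, 216 and 177 genes were over 2-fold higher in Prx1Cre and OsxCre with 1 added, 11 and 5 with 100 added, and 207 and 165 by the mean over cells. The cause was not tested. Of the 120 values of genes named between the lines, 105 kept their side of the threshold, 15 lost it and none reversed. After thinning, cycling cells in Prx1Cre were 11.3%, and resting list cells 3.55% and 1.56%. In RNA-seq the counts of genes higher, lower and leading genes higher were 75, 166 and 16 with DESeq2, 39, 50 and 15 without the filter, and 259, 300 and 26 with each library as a sample. With the replicate block, which pairs the numbers, they were 164, 312 and 28. They were 0 with the control groups alone, and 0 to 0 without each control sample in turn. Without each control sample in turn, the log2 fold change of Zmpste24 (gpSSPCs over pSSPCs, 0.21 with all) was -0.89 to 3.58. It turned to -0.89 without replicates 2 and 3 of the gpSSPC controls and to -0.70 without replicate 1 of the pSSPC controls, and was 0.88 without replicate 1 of the gpSSPC controls. Of 270 values of the leading genes, 185 stayed on their side of the threshold, 85 passed it and none reversed. The promoter count of 11 was 9 at a fold enrichment of at least 3 and 10 at an overlap of at least 125 bases, both chosen after seeing the data. The promoter comparison itself was added after the design was fixed and has no test. Counts of 3 UMIs are 5.71 CPM in Prx1Cre and 11.4 CPM in OsxCre chondrocyte-like cells, which limits genes of low level.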
